A study of Mus musculus with 2 samples.

Results

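Haemoglobin transcripts, those of the alpha-globin genes Hba-a1 and Hba-a2 and of the beta-globin genes Hbb-bs and Hbb-bt, were followed across cell classes of the mouse spleen, 4 genes of the 27032 in the deposited tables. The genes had been singled out by an earlier fit of these data between macrophages with and without Siglec1, so that contrast is given below as a description. The cells were sorted into classes by unique molecular identifier (UMI) counts of 14 other genes, so that no haemoglobin value decided the class of a cell. The data are single-cell RNA-seq counts (BD Rhapsody whole-transcriptome libraries) of CD11c+ cells, enriched on magnetic beads from the spleens of wild-type mice on the C57BL/6J background that received no treatment according to the labels. There were 2 samples, replicates 1 and 2, which were labelled with sample tags and processed together. Replicate 1 held 3308 cells with 46953398 UMIs (median 11869.5 per cell) and replicate 2 held 3085 cells with 43137746 UMIs (median 11241), and they shared 0 cell barcodes. The study used adult mice of both sexes, but neither the labels nor the methods tell how many mice made up a sample, so every p-value below measures only the spread between these 2 samples. The study used them to describe splenic CD11c+ cells, and among these the signals between marginal metallophilic macrophages and Langerin+ cDC1s. The comparison made here is whether the macrophages held more haemoglobin RNA than cells that should hold none. The level of those cells was taken as a measure of the free RNA caught beside each cell. Some of them were rich in haemoglobin RNA, as described below, and whether their level measures free RNA alone was not tested.

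Haemoglobin, the oxygen carrier of red cells, is a tetramer of alpha and beta chains, each holding a haem group. Its messenger RNAs are made in erythroblasts, stay abundant in reticulocytes and are lost as the red cell matures. In the spleen, red pulp macrophages engulf old and damaged red cells, break down their haem with haem oxygenase and return the iron to the blood through ferroportin, while marginal metallophilic macrophages, marked by Siglec1 (CD169), border the white pulp. The mouse spleen also makes red cells itself. Red cells in the suspensions were lysed with ACK buffer during preparation.

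Both pairs of genes are nearly identical copies, and this limits what can be said of each alone. In the GENCODE M21 annotation of the GRCm38 genome, Hba-a1 (ENSMUSG00000069919, chr11:32283511-32284465) and Hba-a2 (ENSMUSG00000069917, chr11:32296489-32297298) lie on the plus strand, and Hbb-bs (ENSMUSG00000052305, chr7:103826534-103828096) and Hbb-bt (ENSMUSG00000073940, chr7:103812524-103813996) on the minus strand, each with 3 exons. The alpha coding sequences, 429 bases each, differed at 1 base (99.8% identity, longest identical run 380 bases), and the beta coding sequences, 444 bases each, also differed at 1 base (99.8%, longest identical run 416 bases). The stretches that hold these bases are shown because they are the only coding letters by which a read could be assigned to one copy, with the differing base in capitals. They cover coding bases 361 to 401 of the alpha genes and 397 to 437 of the beta genes, read from the GRCm38 genome.
Hba-a1: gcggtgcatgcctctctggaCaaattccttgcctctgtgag
Hba-a2: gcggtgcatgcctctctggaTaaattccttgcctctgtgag
Hbb-bs: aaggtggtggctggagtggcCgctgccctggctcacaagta
Hbb-bt: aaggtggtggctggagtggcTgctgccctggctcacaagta
The untranslated parts were not compared, and how the counting divided reads between the copies was not tested. Counts of a single copy are given with that reserve. The sum of the 4 genes and the split between alpha and beta chains do not change when a read moves between copies. Reads dropped for fitting both copies would be missing from the sum and could shift the split, and whether any were dropped was not tested.

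The 4 genes were found together in the cells rich in haemoglobin described below, and the letters before their start sites are shown for that reason. RefSeq stretches (GRCm38.p6) were available for all 4 genes and were searched on both strands, within 110 bases before the start, for the CCAAT box, the TATA box core TATAA, and CACCC and GATAA, the letters read by erythroid factors of the KLF and GATA families. The windows of 30 bases hold CCAAT or TATAA in capitals.
Hba-a1, CCAAT, chr11:32283571-32283600, plus strand: aagcacaaaccagCCAATgagaactgctcc
Hba-a2, CCAAT, chr11:32296388-32296417, plus strand: aagcacaaaccagCCAATgagaactgctcc
Hbb-bs, CCAAT, chr7:103827988-103828017, minus strand: accctggtaagggCCAATctgctcacacag
Hbb-bt, CCAAT, chr7:103813982-103814011, minus strand: accctggcattggCCAATctgctcagagag
Hba-a1, TATAA, chr11:32283632-32283661, plus strand: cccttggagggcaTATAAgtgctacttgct
Hba-a2, TATAA, chr11:32296449-32296478, plus strand: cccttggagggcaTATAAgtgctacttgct
Hbb-bs, TATAA, chr7:103827941-103827970, minus strand: ccagggcagagcaTATAAggtgaggtagga
Hbb-bt, TATAA, chr7:103813935-103813964, minus strand: ccagcattgggtaTATAAagctgagcaggg
The windows of Hba-a1, Hbb-bs and Hbb-bt fall in whole or in part inside the gene as GENCODE draws it, and those of Hba-a2 before it, since the annotated starts differ. The alpha windows were letter for letter the same, whereas the beta windows differed from each other. CCAAT stood 75 to 91 bases and TATAA 27 to 30 bases before the RefSeq start of every gene. Among 32851 RefSeq promoters, 20.2% held CCAAT within the same 110 bases on either strand and 10.9% held TATAA, so neither motif is particular to these genes. CACCC was also found before all 4 genes (29.6% of all promoters), and GATAA before none of them (9.43% of all promoters), which says only that these letters are not in this window.

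Cells were assigned to the first class whose rule they met: macrophages by at least 20 UMIs of Vcam1 (an adhesion molecule) and 5 of C1qb (a complement subunit), mature dendritic cells (DCs) by Ccr7 and Fscn1, cDC1s by Clec9a and Xcr1, plasmacytoid DCs (pDCs) by Siglech and Ccr9, B cells by Cd79a, T cells by Cd3e, NK cells by Ncr1, and cDC2s by Clec4a4 (DCIR2) or by the summed UMIs of Clec10a and Cd209a (CLEC10A). The rule took 4922 of 6393 cells into 9 classes and left 1471 without one. All 12 further macrophage markers, among them Adgre1, Csf1r and Mertk, were higher in the macrophages than over the other classes in both replicates. Most markers of the mature DC, cDC1, pDC, B, T and NK classes did the same for theirs, but only 5 and 4 of 9 markers did so for the DCIR2 cDC2s and 5 and 7 of 9 for the CLEC10A cDC2s, whose names here stand for their rule alone.

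The macrophages held most of the haemoglobin RNA of the spleen samples. The 358 macrophages of replicate 1 contained 25788 of its 27801 haemoglobin UMIs (92.8%), and the 161 macrophages of replicate 2 contained 9891 of 14597 (67.8%). This came to 72.0 UMIs per macrophage in replicate 1 (95% exact Poisson interval 71.2 to 72.9) and 61.4 in replicate 2 (60.2 to 62.7), or 3555 and 2782 CPM (counts per 1000000 UMIs). All intervals given here cover counting error only. Among the other 8 classes, cDC1s had the highest mean in both replicates, with 1.28 UMIs per cell in 797 cells and 2.66 in 710 cells, 56.1 and 23.1 times below the macrophages. The depth of these cDC1s was close to that of the macrophages, with medians of 20185 and 21782.5 UMIs per cell against 19570.5 and 19416.

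Each gene had the same order of classes at the top. Hba-a1 had 24.5 and 22 UMIs per macrophage in replicates 1 and 2, Hba-a2 had 21.1 and 18.4, Hbb-bs had 20.1 and 15.6, and Hbb-bt, the least abundant beta chain, had 6.23 and 5.43. In cDC1s the 4 genes together gave 1023 UMIs in replicate 1 and 1891 in replicate 2. The remaining classes lay lower and close to each other. DCIR2 cDC2s had 0.331 and 0.616 haemoglobin UMIs per cell, CLEC10A cDC2s 0.235 and 0.543, mature DCs 0.211 and 0.182, B cells 0.203 and 0.109, and T cells 0.160 and 0.364. NK cells, only 39 and 36 in number, had 0.103 and 0.972, the latter with 25 of its 35 UMIs in 1 cell. The 14 and 20 pDCs held 1 and 2 UMIs in all, every one of Hba-a1. The order below cDC1s was not the same in both replicates, and most neighbouring classes had overlapping intervals.

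**Figure D1:**
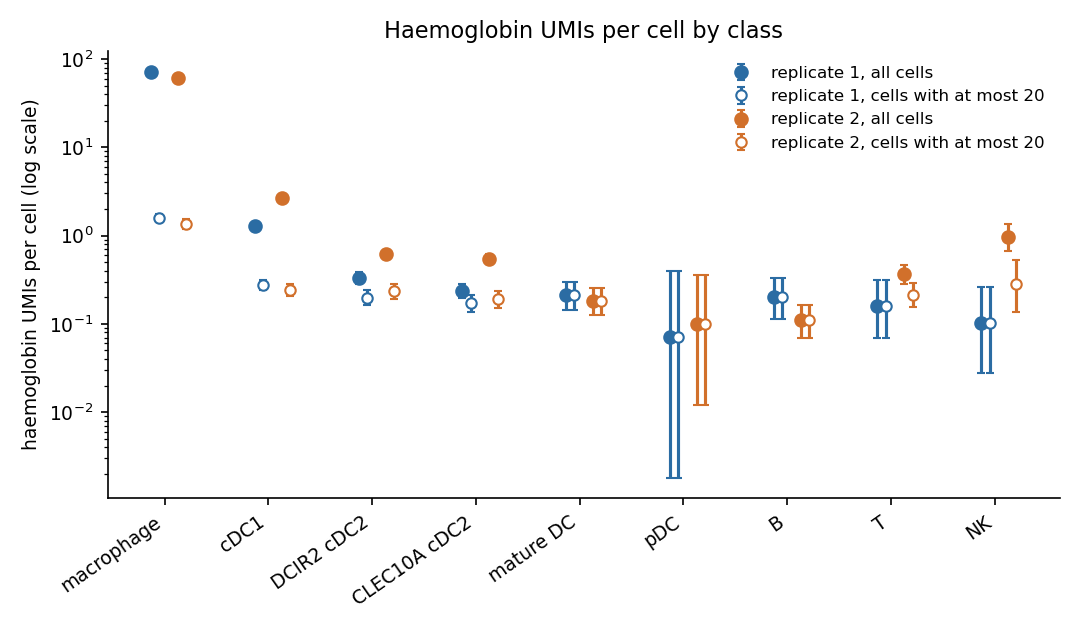
Haemoglobin UMIs per cell (the 4 genes summed, log axis) by cell class and replicate, with 95% exact Poisson intervals. Filled points are all cells and open points cells with at most 20 haemoglobin UMIs, and macrophages sit highest on both, at 72.0 and 61.4 and at 1.60 and 1.35 UMIs per cell.

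Summed per class and sample and compared by edgeR's quasi-likelihood test with Benjamini-Hochberg adjustment, all 4 genes were higher in macrophages than in the mean of the other 8 classes, where 31.2% of 12216 genes tested were called higher and 20.7% lower. The log2 differences were 7.10 (SE 0.20) for Hba-a1, 7.66 (0.27) for Hba-a2, 7.72 (0.22) for Hbb-bs and 7.49 (0.23) for Hbb-bt, with edgeR adjusted p from 1.2e-16 to 8.1e-15. Because pDCs held no UMI of 3 of the genes, the mean was also taken without them, as an alternative chosen after seeing the data, and gave 7.0, 6.61, 6.70 and 6.66. Against cDC1s, the class nearest to them in median depth, the log2 differences were 4.96 (0.31), 5.07 (0.36), 5.37 (0.31) and 5.58 (0.29), with edgeR adjusted p from 7.2e-12 to 7.5e-10, where 26.5% of all genes were called higher. The 4 genes were called higher in each of the 8 comparisons with a single class, 32 of 32. The share of all genes called higher was 27% against mature DCs, 17.4% against pDCs, 27.5% against B cells, 26.5% against T cells, 19.6% against NK cells, 26.7% against DCIR2 cDC2s and 24.4% against CLEC10A cDC2s. The test does not see how the UMIs were spread over cells, which is described next.

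Nearly all of these UMIs sat in a few cells. Of the macrophages, 10 in replicate 1 and 4 in replicate 2 held at least 100 haemoglobin UMIs each, and these cells together held 97.1% and 96.7% of the haemoglobin UMIs of their class. The cell with the most held 6750 UMIs in replicate 1, 26.2% of the class total, and 3886 in replicate 2, 39.3%. In these cells the 4 genes made up 0.364% to 20.6% of all UMIs in replicate 1 and 2.67% to 13.3% in replicate 2, and each of the 14 cells had UMIs of all 4 genes. Most macrophages had no haemoglobin UMI at all, 190 of 358 and 92 of 161. In between, 70 and 22 macrophages had 1 UMI, 53 and 29 had 2 to 5, 30 and 10 had 6 to 20, and 5 and 4 had 21 to 99.

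**Figure D2:**
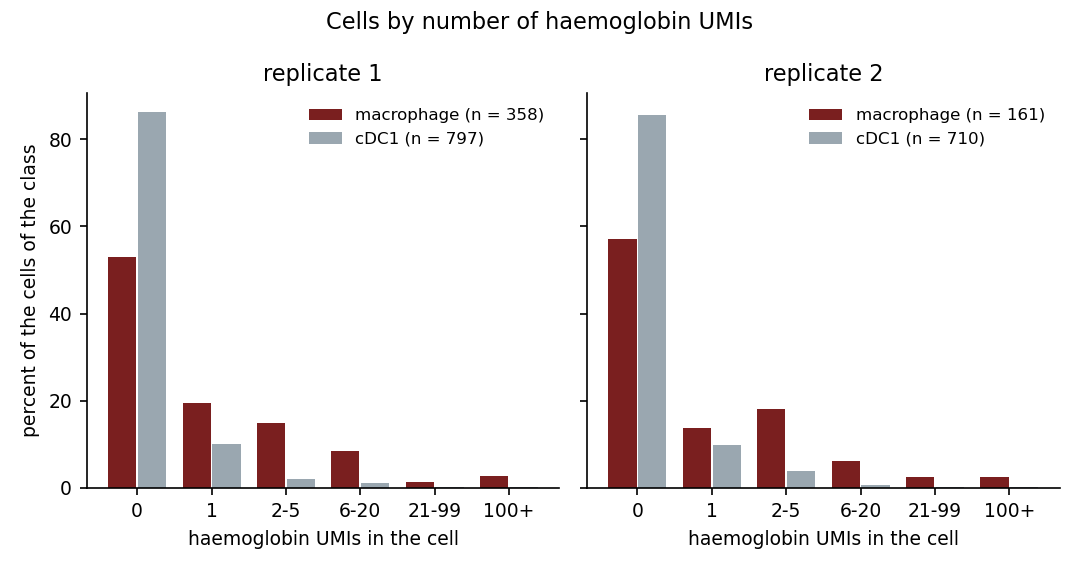
Percent of the macrophages and of the cDC1s (y axis) by haemoglobin UMIs in the cell (x axis, the 4 genes summed), by replicate. Macrophages have a smaller share of cells at 0 than cDC1s and a larger one in every other bin, and 10 and 4 of them reach 100 UMIs.

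The cells rich in haemoglobin also carried transcripts that mark the erythroid lineage. Alas2, the erythroid form of the first enzyme of haem synthesis, was found in 9 of the 10 macrophages of replicate 1 (242 UMIs) and in all 4 of replicate 2 (79 UMIs). Slc4a1, the band 3 anion exchanger of the red cell membrane, was found in 7 and 4 of them. Car2 (carbonic anhydrase) was found in 8 and 4, and Bpgm, which makes the 2,3-bisphosphoglycerate that tunes oxygen release, in 9 and 3. The same cells held 39 to 267 Vcam1 UMIs (median 141.5) and 16 to 145 C1qb UMIs (median 83.5) in replicate 1, and 58 to 285 (median 129.5) and 39 to 150 (median 100.5) in replicate 2. Only 1 cell in each replicate met the rule of a second class, and 1 cell in replicate 1 and 0 in replicate 2 were called doublets by Scrublet. What part a red cell in the same well, or one taken up by the macrophage, had in these values was not tested.

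Cells this rich in haemoglobin were also found outside the macrophages. There were 2 cDC1s with at least 100 UMIs in each replicate (263 and 437 UMIs, and 768 and 929). In replicate 2 there were also 1 DCIR2 cDC2 (110 UMIs) and 1 CLEC10A cDC2 (147 UMIs), so that 4 classed cells outside the macrophages and 4 macrophages reached that level there. As shares these were 0.251% and 0.282% of the cDC1s, 0.215% of the DCIR2 cDC2s and 0.240% of the CLEC10A cDC2s, against 2.79% and 2.48% of the macrophages. Together, 4 and 3 cDC1s went above 20 UMIs, as did 1 and 3 DCIR2 cDC2s, 1 CLEC10A cDC2 in each replicate, and 1 NK cell (25 UMIs) and 1 T cell (28 UMIs) in replicate 2. Of the macrophages, 15 and 8 went above 20. In cDC1s, the 2 cells with at least 100 UMIs held 68.4% of the haemoglobin UMIs of the class in replicate 1 and 89.7% in replicate 2.

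Below 21 haemoglobin UMIs, where 343 and 153 macrophages remained, the class still had the highest level, at a far smaller distance. This cut was chosen after seeing the data and on the haemoglobin counts themselves, so the values are a description. The macrophages had 1.60 UMIs per cell (1.47 to 1.74) in replicate 1 and 1.35 (1.17 to 1.55) in replicate 2, against 0.279 and 0.245 in cDC1s, 5.73 and 5.53 times as many. The highest other class was cDC1s in replicate 1 and NK cells (0.286 per cell) in replicate 2. As CPM the macrophages had 79.3 and 61.9 and the highest other class had 22.3 (T cells, replicate 1) and 34.9 (NK cells, replicate 2), so that the distance was 3.55 and 1.77 times on that scale. T cells and NK cells had medians of 5922.5 to 7737 UMIs per cell, well below the macrophages.

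A haemoglobin UMI was found in 46.9% of macrophages (95% exact binomial interval 41.7 to 52.2) in replicate 1 and in 42.9% (35.1 to 50.9) in replicate 2. In lymphocytes, which should not express these genes, the shares were 14.9% and 7.96% of B cells, 12.0% and 9.63% of T cells and 10.3% and 16.7% of NK cells, at median depths between 5922.5 and 7737 UMIs. In cDC1s, near the macrophages' depth, the shares were 13.8% and 14.5%. The same held per gene, with Hba-a1 in 29.6% and 29.2% of macrophages, Hba-a2 in 25.4% and 21.7%, Hbb-bs in 24.3% and 23.0%, and Hbb-bt in 10.6% and 12.4%. After each cell was thinned to 3000 UMIs, with shallower cells left out, the share was 21.5% (17.4 to 26.1) and 16.8% (11.4 to 23.5) in macrophages. It was 3.77% and 3.66% in cDC1s, 3.40% to 4.95% in mature DCs and both cDC2 classes, 4.11% and 4.50% in B cells and 6.0% and 5.88% in T cells. The interval of the macrophages lay above those of cDC1s, both cDC2 classes, mature DCs, B cells and T cells in each replicate, but it overlapped that of NK cells (7.89% and 11.4%, with intervals up to 21.4 and 26.7) and, with no UMI found among 14 and 20 cells, that of pDCs.

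**Figure D3:**
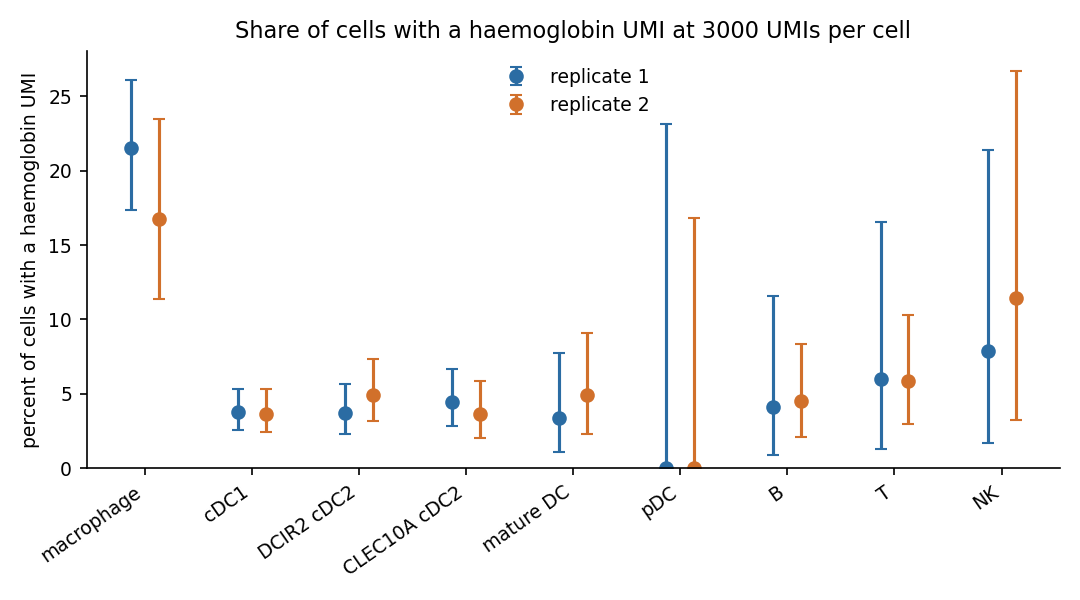
Share of cells with at least 1 haemoglobin UMI after thinning to 3000 UMIs per cell, in percent, by class and replicate, with 95% exact binomial intervals. Macrophages reach 21.5% and 16.8%, cDC1s 3.77% and 3.66%, and the wide bars belong to NK cells and pDCs.

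Several UMIs in a cell were also more frequent in macrophages. At least 2 haemoglobin UMIs were counted in 27.4% and 29.2% of macrophages, against 3.76% and 4.79% of cDC1s and, in NK cells of replicate 2, 11.1%. Among macrophages with 2 to 20 UMIs, 51 of 83 and 23 of 39 had both an alpha and a beta transcript (61.4% and 59.0%), and among such cDC1s 16 of 26 and 20 of 31 did. The share of macrophages with a UMI moved with depth in replicate 1, where in 3 groups of equal size by total UMIs, from shallow to deep and with cells above 20 haemoglobin UMIs left out, it was 25.2%, 51.8% and 57.0%, and less in replicate 2, where it was 37.3%, 39.2% and 43.1%. In each of these groups of both replicates the macrophages (0.783 to 2.10 UMIs per cell) lay above the cDC1s (0.133 to 0.439).

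Leaving out every cell with a UMI of any of 6 genes of the erythroid lineage, among them Slc4a1 and Alas2, removed 24 and 11 macrophages and most of the haemoglobin RNA with them. The remaining macrophages had 2.37 and 2.07 haemoglobin UMIs per cell, 7.88 and 7.52 times the cDC1s treated the same way. They still included cells above 20 haemoglobin UMIs, since only 12 of 15 and 4 of 8 such macrophages held a UMI of these erythroid genes. In replicate 1, 1 remaining macrophage held 210 of the 792 UMIs left. In replicate 2 the NK cells, at 1.00 per cell, were nearest, and as CPM they lay above the macrophages, whose level was 0.78 times theirs. That NK value rests largely on 1 cell with 25 haemoglobin UMIs. All 4 genes were still called higher against the mean of the other classes, with log2 differences of 3.07 (SE 0.25), 3.30 (0.42), 3.54 (0.36) and 2.86 (0.55) and edgeR adjusted p up to 0.00023, beside 31.9% of all genes. Against cDC1s the differences were 3.32 (0.33), 2.78 (0.43), 3.07 (0.37) and 2.56 (0.54), with edgeR adjusted p up to 0.00054, beside 27.5% of all genes. Of the 32 comparisons of a gene with a single class, 27 kept their call, and those that did not were Hbb-bt against B cells (edgeR adjusted p = 0.48), Hba-a2, Hbb-bs and Hbb-bt against NK cells (0.46, 0.22 and 0.64) and Hbb-bt against pDCs (0.077).

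Transcripts of other foreign cell types were taken as a measure of RNA caught from outside in the same cells. Of 39 genes of B cells, plasma cells, T cells, NK cells, neutrophils, platelets and basophils, 29 had at least 3 UMIs in the cDC1s of both replicates. Over cells with at most 20 haemoglobin UMIs, the share of macrophages with a UMI of such a gene was, at the median, 1.07 and 0.933 times the share of cDC1s. Single genes ran from 0 to 10.3 times in replicate 1 and from 0 to 10.7 times in replicate 2. For the 4 haemoglobin genes the same ratio was 2.95 to 4.88 in replicate 1 and 2.90 to 5.88 in replicate 2. The medians were 0.642 and 0 for neutrophil genes, 0.809 and 1.32 for T cell genes, 1.02 and 0.661 for NK cell genes and 1.62 and 1.21 for B cell genes. Plasma cell genes stood higher, at 4.43 and 2.21 over 4 genes, close to the haemoglobin genes in replicate 1. In all, 5 genes in replicate 1 (among them Iglc1, Iglc2, Mzb1 and Cd79b) and 2 in replicate 2 (Jchain and Cd79b) had a higher ratio than the lowest haemoglobin gene. Cd79b, a subunit of the B cell receptor complex, was the only one in both replicates (10.3 and 10.7). It was found in 24.8% and 39.2% of macrophages and in 2.40% and 3.68% of cDC1s. Some of the 29 genes were frequent in the cDC1s (Ighm in 87.4% and 89.8%, Ms4a1 in 28.2% and 23.9%), so not all of them measure free RNA there. The floor of 3 UMIs was set on the cDC1s, so genes found almost only in macrophages could not enter the medians. Among the genes left out, Ppbp had 9 and 6 UMIs in macrophages and 0 and 0 in cDC1s, and Pf4 had 6 and 7 against 2 and 0. Mcpt8 and Cpa3 went the other way, with 0 in macrophages and 2 and 2, and 3 and 1, in cDC1s.

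**Figure D4:**
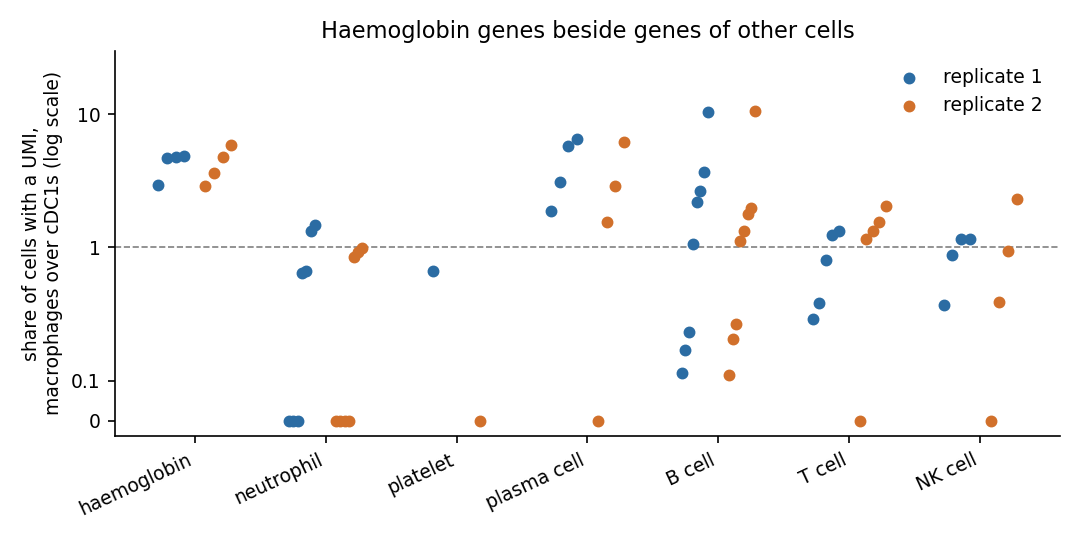
Ratio of the share of macrophages to the share of cDC1s with a UMI (log axis, with a tick for 0), for genes of other cell types and for the 4 haemoglobin genes, in cells with at most 20 haemoglobin UMIs, by replicate. Only foreign genes with at least 3 UMIs in the cDC1s of both replicates are shown. These run from 0 to 10.3 in replicate 1 and from 0 to 10.7 in replicate 2 (medians 1.07 and 0.933), and the haemoglobin genes lie between 2.90 and 5.88.

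The balance of the chains did not differ beyond counting error between macrophages and cDC1s where few UMIs were present. In cells with at most 20 UMIs, alpha transcripts made up 67.0% (62.9 to 70.9) and 63.8% (56.8 to 70.3) of haemoglobin UMIs in macrophages and 67.4% (60.8 to 73.5) and 61.9% (54.2 to 69.1) in cDC1s, with overlapping intervals. Over all cells the share was 63.4% and 65.8% in macrophages and 71.9% and 70.0% in cDC1s, but there a few cells set the value. In the macrophages with at least 100 UMIs of replicate 1 it ran from 55.0% to 80.4% of the cell's haemoglobin UMIs. B cells had lower shares, 46.7% and 27.3%, on only 15 and 22 UMIs. Within the chains, Hbb-bt gave 23.7% and 25.8% of the beta UMIs of macrophages and Hba-a1 gave 53.7% and 54.4% of the alpha UMIs, as far as reads can be assigned to a copy.

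Other genes of the red cell followed the haemoglobin genes only in part. Of 10 other globin genes, among them the embryonic Hba-x, Hbb-bh1 and Hbb-y, 8 were in the tables and only Cygb, cytoglobin, which is not a red cell protein, passed the filter on low counts. Its log2 difference against the mean of the other classes was 3.73 (edgeR adjusted p = 0.00043), but mature DCs, with 23.6 and 17.6 CPM, lay above the macrophages, with 6.20 and 6.47, and several classes were at 0. Of 25 erythroid genes, 24 were in the tables and 8 were tested, of which 7 were higher, beside 31.2% of all genes (among them Alas2 6.49, Slc4a1 6.31, Epor 8.46, Car1 2.94, Car2 2.28 and Hemgn 3.21 on the log2 scale) and Tfrc, the transferrin receptor, was lower (-1.12). NK cells nevertheless held more Car2 than macrophages (494 and 374 CPM against 51.3 and 48.9) and, summed over the 24 genes, stood at 573 and 435 CPM against 218 and 219. The 8 tested had a median of 4.76 beside 0.07 over all genes tested, but those that passed had to be high somewhere and so the median describes no more than them. Of 16 tested transcripts that are abundant late in red cell life but found elsewhere too, 12 were higher and 4 were not called, with a median of 1.29, again beside 31.2% of all genes called higher and a median of 0.07. Of 12 genes of haem synthesis, 8 were higher and 4 were not called, with a median of 0.57, beside the same background. With cell number as library size these counts were 14 and 10.

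Most genes of haem and iron recycling were higher in the macrophages, and the 3 of them followed by haemoglobin content, Hmox1, Slc40a1 and Spic, had high levels in macrophages with and without haemoglobin RNA. Of 17 genes of recycling 15 were tested and 12 were higher than in the mean of the other classes (median 4.47), beside 31.2% of all genes, and all 15 were with cell number as library size. Among the 12 were Hmox1, which opens the haem ring (8.52), Blvrb, which reduces biliverdin (5.62), Slc40a1, the iron exporter ferroportin (8.84), Cd163, the receptor for haemoglobin bound to haptoglobin (8.17), Trf, transferrin (6.24), and Spic, a transcription factor of red pulp macrophages (7.42). In macrophages with 0, 1, 2 to 20 and more than 20 haemoglobin UMIs, Hmox1 stood at 5013, 4659, 5119 and 4148 CPM in replicate 1 and at 4893, 5166, 5223 and 4098 CPM in replicate 2. Slc40a1 ranged over these groups from 4442 to 6616 CPM and Spic from 1632 to 2246 CPM. Alas2 in the same groups stood at 1.75, 0, 0.53 and 721 CPM in replicate 1 and at 0, 0, 2.00 and 372 CPM in replicate 2. Slc4a1 stood at 0, 0.62, 0.53 and 343 CPM and at 0.52, 0, 1.00 and 207 CPM. Alas2 and Slc4a1 were high only in the group above 20 UMIs, and there nearly all of their UMIs lay in the cells with at least 100, since the 5 and 4 macrophages with 21 to 99 held 4 and 0 UMIs of Alas2 and 2 and 0 of Slc4a1. The macrophages with 2 to 20 haemoglobin UMIs had about as few UMIs of Alas2 and Slc4a1 as macrophages with none, but they had more Car2 and Bpgm. Car2 stood at 28.63 CPM with 2 to 20 and 11.69 CPM with none in replicate 1, and at 22.03 and 12.38 CPM in replicate 2. Bpgm stood at 9.54 and 6.14 CPM in replicate 1 and at 12.02 and 3.09 CPM in replicate 2. Whether these levels differ beyond counting error was not tested. The 24 erythroid genes together stood at 96.7, 88.5, 111 and 2640 CPM in replicate 1 and at 77.9, 81.4, 97.1 and 2343 CPM in replicate 2. A UMI of at least 1 of the 6 erythroid genes used above was found in 2.63% and 3.26% of macrophages with no haemoglobin UMI, in 4.82% and 10.3% of those with 2 to 20, and in 80.0% and 50.0% of those above 20.

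**Figure D5:**
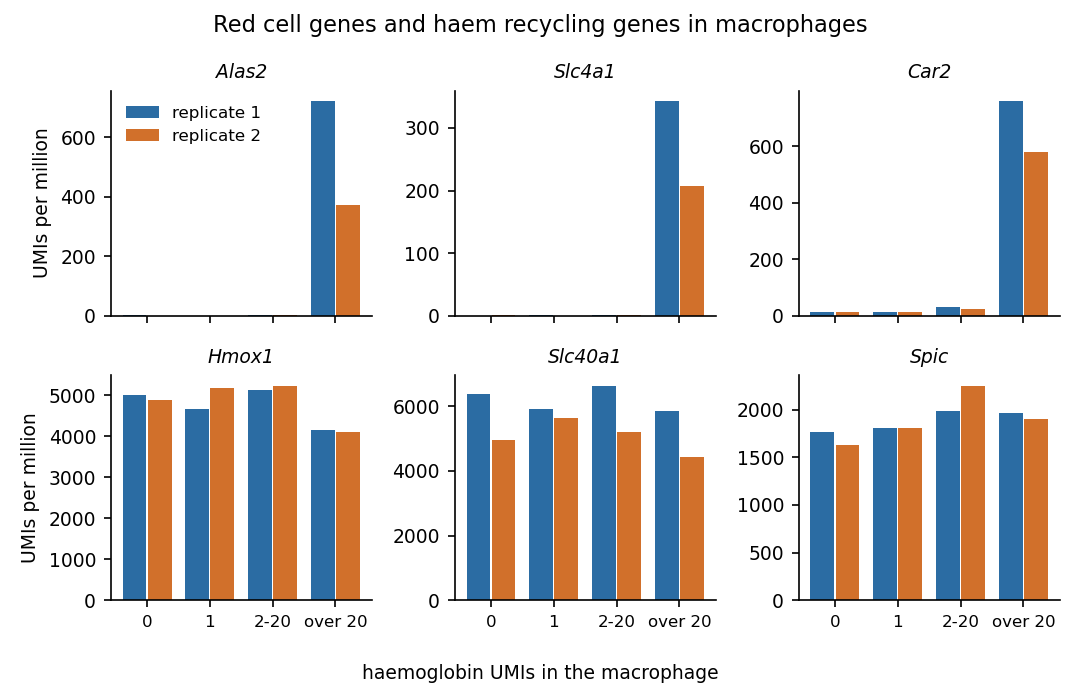
CPM of red cell and haem recycling genes in macrophages grouped by haemoglobin UMIs per cell (0, 1, 2 to 20 and over 20), by replicate, with a y axis of its own for each gene. Alas2, Slc4a1 and Car2 are highest in the last group, while Hmox1 stays between 4098 and 5223 CPM.

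The markers of other cells were counted beside a background of 31.2% of all genes called higher and 20.7% called lower. Against the mean of the other classes, edgeR called neither of the tested neutrophil genes (S100a8 and S100a9), 2 of 9 T cell genes were called lower and 7 not called, 3 of 8 NK cell genes were called lower and 5 not called, and of 9 B cell genes Cd79b was called higher and 4 lower. Of 7 tested plasma cell genes Xbp1, which other secreting cells also use, was called higher and 6 were not called. The only tested platelet gene, Clec1b, was higher (7.14), and the only tested basophil gene, Cd200r3, was not called. What part RNA of such cells had in the haemoglobin values was not tested.

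By likeness across the 18 sums of class and sample, the genes whose log2(CPM + 1) followed summed haemoglobin most closely (Pearson's r, 12297 genes compared) were Cracr2b (0.954), Twf1 (0.945), Hmox1 (0.941), Alas2 (0.941) and Cd14 (0.933), followed by C6, Ccdc152, Nid2, Fam213b and Hpn. This measure mostly separates the 2 macrophage sums from the rest. Across single macrophages (519 cells, r taken within each replicate and averaged, 8772 genes compared), the most alike were Bpgm (0.622), Tent5c (0.564), Car2 (0.562), Slc25a37, the mitochondrial iron importer mitoferrin (0.512), Fech, which places iron into haem (0.404), Ube2l6 (0.402), Ube2o (0.38), Tfdp2 (0.357), Fam220a (0.348) and Cd36 (0.296). Alas2 (0.805) and Slc4a1 (0.650), found in too few cells to enter that ranking, had higher values, while Hmox1 (-0.002), Slc40a1 (-0.018) and Spic (0.074) were near 0. The ranking rested on the few cells rich in haemoglobin. Over the 496 macrophages with at most 20 haemoglobin UMIs none of these 10 genes remained among the 10 most alike, which were led by mt-Atp6 (0.235), mt-Co2 (0.229) and mt-Co1 (0.223), and Alas2 stood at 0.112. The cells share library depth, and the coefficients are a description.

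Siglec1, by which the study defines marginal metallophilic macrophages, was used to split the class into cells with and without a Siglec1 UMI, 129 and 229 in replicate 1 and 73 and 88 in replicate 2. Haemoglobin came to 100 and 56.3 UMIs per cell with and without Siglec1 in replicate 1, and to 133 and 1.74 in replicate 2. The contrast thus turned on where the cells with at least 100 haemoglobin UMIs fell, 6 with and 4 without Siglec1 in replicate 1, and all 4 with it in replicate 2. In cells with at most 20 haemoglobin UMIs the values were 2.15 and 1.3 per cell in replicate 1 and 1.21 and 1.46 in replicate 2, in opposite order. The log2 differences were 1.72 (SE 0.87), 1.77 (0.91), 1.62 (0.85) and 1.34 (0.78) for Hba-a1, Hba-a2, Hbb-bs and Hbb-bt, and none was called (edgeR adjusted p = 0.99 each, unadjusted p 0.075 to 0.11), beside 1 of 10104 genes called higher (0.0099%) and 9 lower (0.0891%). DESeq2 called none of the 4 either. With the sample as a block all 4 genes were called (2.78, 2.87, 2.63 and 1.83), beside 0.465% of all genes, although replicate 1 alone gave 0.23 to 0.71 and replicate 2 alone 5.63 to 6.38. That fit took a spread shared in full by all genes (quasi-dispersions of 0.151 to 0.500), while the genes' own values of 180 to 261 did not enter it, and DESeq2 with the same block, added after seeing the data, called none of them (adjusted p = 1.00). Cells with a Siglec1 UMI were also deeper, with medians of 22087 and 22634 UMIs against 17724 and 17986.5, and after thinning the low cells to 3000 UMIs the shares with a haemoglobin UMI were 21.5% and 16.2% in replicate 1 and 12.1% and 12.6% in replicate 2.

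At the edge of the macrophage rule, the 48 and 13 cells that met it but not a stricter form (Vcam1 at least 40 and C1qb at least 10 UMIs) held 266 haemoglobin UMIs in replicate 1, 210 of them in 1 cell, and 1 UMI in replicate 2. The 35 and 24 cells just outside it, which met only a looser form (Vcam1 at least 5 and C1qb at least 2), held 286 UMIs in replicate 1, 263 of them in 1 cell, and 5 in replicate 2. The cell with 263 was the cDC1 with that count named above, and it held 6 Vcam1 and 16 C1qb UMIs. Under the looser form the cDC1s of replicate 1 had 0.958 haemoglobin UMIs per cell in place of 1.28.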

How the data were processed

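The authors deposited UMI counts per cell and gene from the BD Rhapsody WTA Analysis Pipeline (version 1.12.1 in the file headers), with error-corrected molecules, cells called by the pipeline, reads in introns counted, and GRCm38 with GENCODE vM19 as reference. R 4.2.3 and Seurat 4.3.0.1 are named in the submitters' processing notes. The counts were used as deposited, with no cell removed, in Python 3.11.15 and scanpy 1.11.5. Class rules and members were given with earlier results of these data known, and the gene lists were chosen likewise. UMIs were summed per sample and class (18 sums), the 14 class-defining genes were left out, and edgeR 4.0.16 (TMM, filterByExpr, quasi-likelihood test, R 4.3.3) was fitted over all classes. P-values were adjusted by Benjamini-Hochberg over the whole table, with 0.05 as the threshold. DESeq2 1.42.0 was an alternative. The script was tested on simulated counts. Shares have 95% exact (Clopper-Pearson) and means exact Poisson intervals. Doublets were left in: 350 and 313 cells met more than 1 class rule and Scrublet marked 34 and 26 cells (0.939%). The filter of the methods (3 median absolute deviations) would have removed 787 and 736 cells and was an alternative. Every class was drawn from both samples, so the replicate numbers pair the sums. Deviations from the class means correlated at -0.046 to 0.140 over 36 pairs of classes (median 0.034) and at 0.162 between the Siglec1 groups. Genes were named if they were haemoglobin genes, belonged to a fixed list, or were among the 10 most alike by correlation over class sums (at least 100 UMIs) or over macrophages (found in at least 10% of them). Positions come from GENCODE M21 on GRCm38, since vM19 was not used here, and promoter stretches from RefSeq (GRCm38.p6). Some genes of the lists were counted with them but are not reported here.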

Additional observations from a re-analysis of the deposited data

Results flagged for a closer look

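Haemoglobin UMIs were also present in the cells that no class rule took, which enter none of the comparisons. The 770 such cells of replicate 1 held 628 haemoglobin UMIs, of which 417 were in 1 cell with 65728 UMIs in all and 433 of Car2. The 701 such cells of replicate 2 held 2141, of which 2022 were in 1 cell and made up 23.0% of its 8800 UMIs. Per cell this was 0.816 and 3.05, between the macrophages and most other classes, and both values rest on those single cells.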

How the results depend on the processing

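The 4 haemoglobin genes stayed higher in macrophages than in the mean of the other classes, and called, in 44 of 44 tests over 11 alternatives (log2 difference 2.86 to 8.40), and 1 sample alone gave 6.53 to 9.59. With the number of cells as library size the median of all genes moved from 0.07 to 0.74 and the calls from 3812 higher and 2528 lower to 7214 and 914. With cell number Slc25a37, Isg20, Alad, Slc25a38, Bach1, Flvcr1, S100a8, Mzb1, Iglc1 and Igkc, none of them called before, also turned from below to above 0, and Bach1, Flvcr1 and Slc25a37 were then called higher, so that 15 of 15 genes of haem and iron recycling, 14 of 16 late red cell transcripts and 10 of 12 genes of haem synthesis were. With DESeq2 the median moved to -0.33. The ratio of macrophages to the highest other class, 39.6 as a mean of both replicates (23.1 to 56.1 with each left out), was 4.97 without cells holding an erythroid UMI (7.88 in replicate 1 and 2.07 in replicate 2, where the same ratio of CPM was 0.78) and 5.23 without cells above 20 haemoglobin UMIs (5.73 and 4.74), an alternative chosen after seeing the data. The share of macrophages with a haemoglobin UMI, 44.9% (42.9 to 46.9 with a replicate left out), was 19.1% after thinning to 3000 UMIs and 9.03% at 1000. At 1000 UMIs the macrophage intervals (7.62 to 14.3 and 3.91 to 12.7) lay above those of cDC1s and DCIR2 cDC2s in both replicates. They overlapped those of B, T and NK cells and pDCs in both, and those of mature DCs and CLEC10A cDC2s in replicate 2. The alpha share, 64.6%, was 63.4 to 65.8 with a replicate left out.

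Between macrophages with and without Siglec1, 10 genes and 0 haemoglobin genes were called. The replicate block gave 173 genes and 4 haemoglobin genes, and no filter on low counts gave 141 and 4, in both cases with 1 spread shared in full by all genes. The filter of the methods gave 2 and 1 (Hbb-bs). DESeq2 gave 17 genes, at least 2 Siglec1 UMIs gave 1 and thinning to 8000 UMIs gave 3, each with 0 haemoglobin genes. The block changed no other call of a haemoglobin gene. The small numbers of pDCs and NK cells, 14 to 39 per replicate, limit what can be said of them.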
